A study of Mus musculus with 8 samples.

Results

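The genes described are 10 parts of the fibroblast growth factor (FGF) system that take part in hair growth: the ligands Fgf5, Fgf7, Fgf10, Fgf18, Fgf20 and Fgf22, the receptors Fgfr1, Fgfr2 and Fgfr3, and Spry2. Spry2 is neither ligand nor receptor but an intracellular inhibitor that FGF signals induce. They were chosen by name with no threshold on measured values, although earlier results of these data were known, and all 10 were found among the 37018 genes on the array through the RefSeq accessions of their probes. Where a gene had several probes, the probe with the highest mean over the 8 arrays was used.

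Whisker follicles of female ApcMin/+ mice were compared after vehicle (4 samples) or E7386 (4 samples). All 8 samples thus carry the Min allele, a truncating allele of Apc, whose product helps to degrade beta-catenin, and no wild-type follicles are among them. E7386 is described as disrupting the contact between beta-catenin and CBP, a coactivator of Wnt target genes. It was given by mouth at 30 mg/kg in 2 doses per day, in 4 cycles of 5 days with drug followed by 2 days without, from 8 weeks of age, and the follicles were taken 6 h after the last dose. Whether each sample is a mouse of its own is not stated in the labels, and the p-values below therefore reflect only how much these 8 samples vary.

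FGF ligands bind receptor tyrosine kinases on neighbouring cells together with heparan sulphate, and the signal runs largely through the RAS and ERK kinase cascade, which induces its own inhibitors of the Sprouty family. In the hair follicle, Fgf7 and Fgf10 are made by the mesenchyme and act on the epithelial form of Fgfr2. Fgf5 is known as the signal that ends the growth phase, since animals without it grow long hair, and Fgf18 is known for holding follicles at rest.

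Each value below is a normalised log2 signal, the log2 of the background-corrected intensity of the probe minus the 75th percentile of its array, so that a difference of 1 is a 2-fold difference in intensity. The values order samples for a given probe and do not order genes, since different probes differ in brightness. The 8 arrays lie on 1 slide with vehicle in row 1 and E7386 in row 2, so row and treatment cannot be told apart in any difference. Spots well above background made up 62.2% to 64.7% of those for mouse transcripts with vehicle, against 61.5% to 61.9% with E7386. Of 25353 genes tested, 191 rose and 93 fell with E7386 (135 and 123 with arrays scaled by their median), at a Benjamini-Hochberg adjusted p under 0.05 in limma. These are whole follicles, in which fewer cells of a type and less RNA per cell cannot be told apart.

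Markers of the follicle layers that make and receive these ligands were present. All 8 inner root sheath markers, all 8 outer root sheath and basal markers and 11 of 12 dermal papilla markers were well above background on every array, and the medians of each of these lists overlapped between the groups. The 12 skeletal muscle markers, from tissue around the follicle, were also all present. Their median was lowest in vehicle replicate 1 (1.58), E7386 replicate 1 (2.10) and E7386 replicate 2 (2.61) and lay between 3.82 and 4.65 in the other 5 samples. Of all the cell type lists examined, only that of the sebaceous gland had medians that did not overlap between the groups. The medians of its 8 markers were -0.72 to -0.40 with vehicle and -0.24 to 0.077 with E7386. Their summed linear signal was 16.9 to 19.4 against 20.2 to 26.5. Of these markers, Dgat2l6, a lipid synthesis enzyme, rose by 0.77 (SE 0.12, adjusted p = 0.0339). Acta2, a smooth muscle actin, was the only called gene of the 8 dermal fibroblast and sheath markers. It fell by 0.69 (SE 0.10, adjusted p = 0.023). Of these 8 markers, 3 had a higher and 5 a lower mean with E7386. Their medians overlapped between the groups, at 3.66 to 4.04 with vehicle and 3.34 to 3.71 with E7386.

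The promoter sequences of Fgf5, Fgf7, Fgf10 and Spry2 are shown because E7386 is aimed at a coactivator that reaches DNA through the TCF/LEF factors. Each is the 250 bases before the annotated gene start, in the RefSeq table of GRCm38.p6, read 5′ to 3′ on the strand of the gene. Fgf5 is at chr5:98253934-98254183 on the plus strand, Fgf7 at chr2:126034408-126034657 on the plus strand, Fgf10 at chr13:118714449-118714698 on the plus strand and Spry2 at chr14:105896820-105897069 on the minus strand. Capitals mark a match to the core of the TCF/LEF motif.

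Fgf5: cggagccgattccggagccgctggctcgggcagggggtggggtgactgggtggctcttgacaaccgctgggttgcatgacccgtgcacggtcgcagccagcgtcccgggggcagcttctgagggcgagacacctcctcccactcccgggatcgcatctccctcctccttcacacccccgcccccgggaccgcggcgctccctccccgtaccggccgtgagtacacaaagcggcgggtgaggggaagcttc
Fgf7: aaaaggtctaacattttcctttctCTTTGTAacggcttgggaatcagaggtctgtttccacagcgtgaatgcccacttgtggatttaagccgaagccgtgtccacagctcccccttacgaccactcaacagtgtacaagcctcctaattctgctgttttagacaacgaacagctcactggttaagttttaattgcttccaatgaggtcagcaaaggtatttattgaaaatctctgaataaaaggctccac
Fgf10: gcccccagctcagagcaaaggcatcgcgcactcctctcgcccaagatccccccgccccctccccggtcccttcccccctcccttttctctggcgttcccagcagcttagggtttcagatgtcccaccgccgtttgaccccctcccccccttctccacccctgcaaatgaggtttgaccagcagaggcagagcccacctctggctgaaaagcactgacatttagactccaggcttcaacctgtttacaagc
Spry2: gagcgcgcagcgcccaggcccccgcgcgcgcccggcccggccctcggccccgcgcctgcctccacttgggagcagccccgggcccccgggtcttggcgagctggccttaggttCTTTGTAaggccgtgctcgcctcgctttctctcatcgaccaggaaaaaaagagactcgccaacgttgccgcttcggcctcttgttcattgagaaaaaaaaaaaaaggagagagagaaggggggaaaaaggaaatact

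The motif was searched on both strands as CTTTG followed by 2 bases that are each A or T, and no other motif was searched. It was found in the promoters of 2 of the 8 members that the table holds, Fgf7 and Spry2, both times as CTTTGTA on the strand of the gene. The match begins 226 bases before the gene start in Fgf7 and 137 bases before it in Spry2. Of all 32851 promoter windows of that length, 14.8% hold a match. The windows of Fgf5, Fgf10, Fgf18, Fgf22, Fgfr2 and Fgfr3 hold no match. For Fgfr1 and Fgf20 there was no promoter sequence to search, and the sequences shown include both members with a match. A match is a description of the letters and not a measured binding site, and the signals of Fgf7 and Spry2 given below differed in opposite directions between the groups, both short of the threshold.

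None of the members passed the threshold. Of the 9 that were tested, 0 rose and 0 fell in limma after adjustment over all genes, against 1.12% of all genes called. At an unadjusted p under 0.05 there were 2 members, Fgf10 and Fgfr1, against 15.2% of all genes, and the same 2 were the members whose groups of samples did not overlap, against 10.5% of all genes. 4 members had a higher and 5 a lower mean with E7386. The median difference over the 9 was -0.043 and the range -0.49 to 0.55, where the median over all genes was 0.0088 and 52.0% of genes had a higher mean. The standard errors of the members ran from 0.069 to 0.36, so the comparison was far tighter for the receptors than for Fgf5 and Fgf18.

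**Figure D1:**
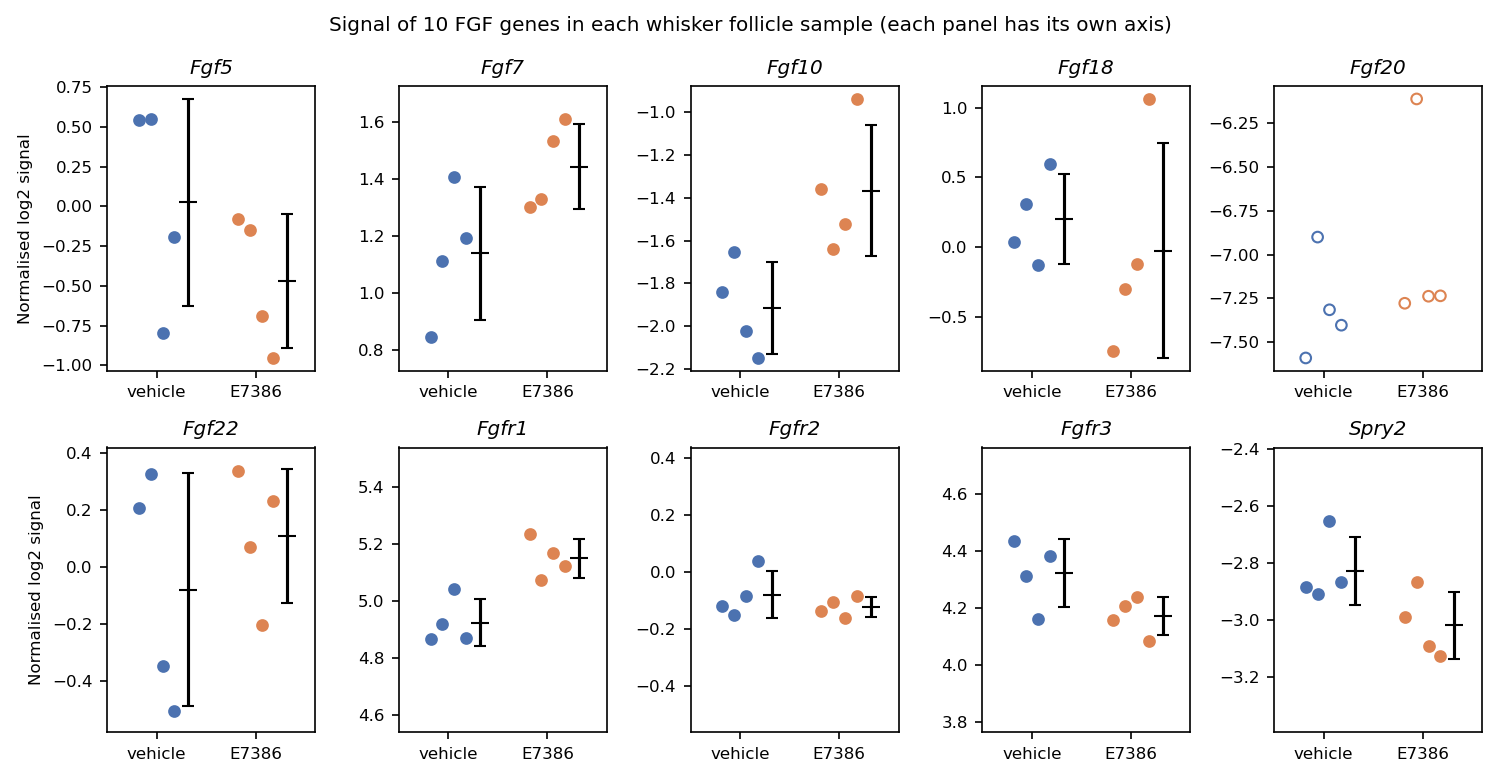
Normalised log2 signal of the 10 genes in each sample, with vehicle in blue and E7386 in orange, 4 samples each in replicate order; horizontal ticks and bars are the mean ± SD, and open circles are spots not well above background. Only Fgf10 and Fgfr1 show groups without overlap; Fgf20 is open on all 8 arrays and has no mean drawn.

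Fgf10, which is made by follicle mesenchyme and acts on the epithelial form of Fgfr2, had the largest positive difference of the members. Its signal was -1.84, -1.65, -2.02 and -2.15 in vehicle replicates 1 to 4 and -1.36, -1.64, -1.52 and -0.94 in E7386 replicates 1 to 4. Every E7386 sample was above every vehicle sample, although vehicle replicate 2 and E7386 replicate 2 were nearly equal. The means were -1.92 ± 0.22 and -1.37 ± 0.31 (SD, n = 4 each), a difference of 0.55 (SE 0.17, 95% interval 0.15 to 0.94), or 1.46-fold (1.11 to 1.92). The unadjusted limma p was 0.0125 and the adjusted p 0.191, short of the threshold. The Fgf10 probe is printed 10 times on each array, and the SD between those spots was 0.080 to 0.13, below the spread between samples. E7386 replicate 4 carried the highest value, and without it the difference was 0.41 (adjusted p = 0.326). The sebaceous markers, whose medians also separated the groups, moved in the same direction, and their part in this difference was not tested.

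Fgf7, keratinocyte growth factor and the closest partner of Fgf10 in the receptor it uses, differed the same way but with overlap. Vehicle replicates 1 to 4 were at 0.85, 1.11, 1.41 and 1.19, and E7386 replicates 1 to 4 at 1.30, 1.33, 1.53 and 1.61. Vehicle replicate 3 lay among the E7386 samples, and vehicle replicate 1 was the lowest of all. The means were 1.14 ± 0.23 and 1.45 ± 0.15 (SD, n = 4 each), with a difference of 0.30 (SE 0.13, 95% interval -0.00086 to 0.61, adjusted p = 0.33). Without vehicle replicate 1, the sample with the lowest muscle signal, the difference was 0.21. With the muscle median of each array as a covariate, a setting added after seeing the data, it was 0.32 (adjusted p = 0.0842), the lowest adjusted p that any member had under any setting.

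Fgf22, another ligand of the Fgf7 and Fgf10 subfamily, which has been described in the inner root sheath, varied as much within the groups as between them. It was at 0.21, 0.33, -0.35 and -0.51 in vehicle replicates 1 to 4 and at 0.34, 0.069, -0.21 and 0.23 in E7386 replicates 1 to 4. Vehicle replicates 1 and 2 were among the high samples, and vehicle replicates 3 and 4 were the lowest of the 8. The difference was 0.19 (SE 0.21, 95% interval -0.30 to 0.67, adjusted p = 0.734). It ran from 0.046 without vehicle replicate 4 to 0.32 without vehicle replicate 2. It moved by over 1.5 times without any of vehicle replicates 1 to 4 or E7386 replicates 1 and 3. With arrays scaled by their median it was 0.11, a scaling that lowered the median over all genes from 0.0088 to -0.068. The 3 ligands of this subfamily that are among the members had higher means with E7386, as did 52.0% of all genes. None of the 3 passed the threshold.

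Fgf5, the ligand that ends the growth phase, had the most negative difference of the members and a wide spread. Its signal was 0.54, 0.55, -0.80 and -0.19 in vehicle replicates 1 to 4 and -0.083, -0.15, -0.69 and -0.95 in E7386 replicates 1 to 4. Vehicle replicates 1 and 2 were above all E7386 samples, whereas vehicle replicate 3 was below 3 of them. The means were 0.026 ± 0.65 and -0.47 ± 0.42 (SD, n = 4 each), a difference of -0.49 (SE 0.34, 95% interval -1.28 to 0.29, adjusted p = 0.541). It was -0.77 without vehicle replicate 3, and -0.32 without either vehicle replicate 1 or vehicle replicate 2. The interval runs from a signal more than 2-fold lower to a slightly higher one. The medians of the 12 muscle markers ran largely against Fgf5, at 1.58, 3.82, 4.43 and 4.57 in vehicle replicates 1 to 4 and 2.10, 2.61, 4.62 and 4.65 in E7386 replicates 1 to 4. Those of the 8 inner root sheath markers were 7.40, 7.30, 6.81 and 6.89 with vehicle and 7.36, 7.002, 6.78 and 7.12 with E7386, higher where Fgf5 was high in vehicle but not in E7386 replicate 4. With the muscle median as a covariate, the Fgf5 difference was -0.53 (adjusted p = 0.272).

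Fgf18, the ligand associated with resting follicles, had the widest spread among samples of E7386. Vehicle replicates 1 to 4 gave 0.035, 0.31, -0.13 and 0.60, and E7386 replicates 1 to 4 gave -0.74, -0.30, -0.12 and 1.06. The lowest 2 and the highest of the 8 samples were all E7386 samples. The difference was -0.23 (SE 0.36, 95% interval -1.06 to 0.61, adjusted p = 0.83), and its sign depended on a single sample, since it was 0.012 without E7386 replicate 1. It was -0.59 without E7386 replicate 4, -0.14 without E7386 replicate 2 and -0.095 without vehicle replicate 4. A second Fgf18 probe followed the same samples, at -1.32, -0.76, -1.32 and -0.90 with vehicle and -2.05, -1.55, -1.34 and -0.016 with E7386, a difference of -0.17 (SE 0.40). Both probes thus placed E7386 replicate 4 highest and E7386 replicate 1 lowest.

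Fgf20, which in embryonic skin drives the gathering of dermal cells under new follicles, was not well above background on any of the 8 arrays with either of its 2 probes. The values of the brighter probe were -7.59, -6.90, -7.32 and -7.40 with vehicle and -7.28, -6.11, -7.24 and -7.24 with E7386. They have no meaning as an order of levels, and Fgf20 was therefore not tested and is given no fold.

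**Figure D2:**
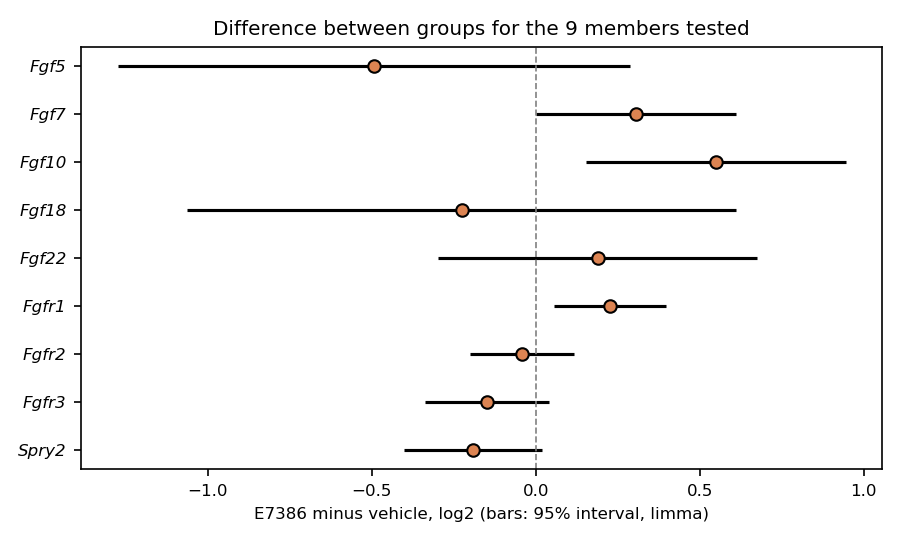
Difference between the groups (E7386 minus vehicle, normalised log2 signal) for the 9 members tested; points are estimates from limma and bars are 95% intervals, not adjusted for the number of genes. The intervals of Fgf10 (0.15 to 0.94) and Fgfr1 (0.056 to 0.40) lie above 0 and the other 7 include it, with Fgf5 and Fgf18 the widest.

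Among the receptors, Fgfr1, which serves mesenchymal cells including the dermal papilla and is a receptor for Fgf5, had a small difference with little spread. It was at 4.87, 4.92, 5.04 and 4.87 in vehicle replicates 1 to 4 and at 5.23, 5.07, 5.17 and 5.12 in E7386 replicates 1 to 4. Every E7386 sample was above every vehicle sample. The means were 4.92 ± 0.082 and 5.15 ± 0.069 (SD, n = 4 each), a difference of 0.23 (SE 0.074, 95% interval 0.056 to 0.40), or 1.17-fold (1.04 to 1.32), with an unadjusted limma p of 0.0153 and an adjusted p of 0.208. The other 2 probes of Fgfr1 gave 0.20 (SE 0.11) and 0.10 (SE 0.075), both with overlapping groups. With arrays scaled by their median the difference was 0.15 (adjusted p = 0.455), a smaller value by more than 1.5 times. That scaling lowered the differences of all members alike, and the median over all genes was then -0.068. The part of the sebaceous markers, which separated the same samples, was not tested here either.

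Fgfr2, whose epithelial form receives Fgf7, Fgf10 and Fgf22, was the most closely bounded member. Vehicle replicates 1 to 4 were at -0.12, -0.15, -0.085 and 0.036, and E7386 replicates 1 to 4 at -0.14, -0.11, -0.16 and -0.085. The groups overlapped, and the difference of -0.043 (SE 0.069, 95% interval -0.20 to 0.12, adjusted p = 0.83) was smaller than the spread between vehicle samples (SD 0.082). With arrays scaled by their median it was -0.12 (adjusted p = 0.431), which is larger in size than that SD. The median over all genes was also lower under that scaling, at -0.068 against 0.0088. The Fgfr2 difference was -0.0040 without vehicle replicate 4 and -0.067 without vehicle replicate 2. A second probe, printed 10 times per array, gave -0.0073 (SE 0.088), and the mean of both probes -0.025. Which splice forms the probes read was not analysed here, so the epithelial and mesenchymal forms are not separated.

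Fgfr3, a receptor of the follicle epithelium, was at 4.44, 4.31, 4.16 and 4.38 in vehicle replicates 1 to 4 and at 4.16, 4.21, 4.24 and 4.09 in E7386 replicates 1 to 4. Vehicle replicate 3 lay among the E7386 samples and the other 3 vehicle samples above all of them. The difference was -0.15 (SE 0.082, 95% interval -0.34 to 0.039, adjusted p = 0.433), and the second probe gave -0.17 (SE 0.091). With arrays scaled by their median it was -0.23 (adjusted p = 0.248), where the median over all genes was -0.068.

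**Figure D3:**
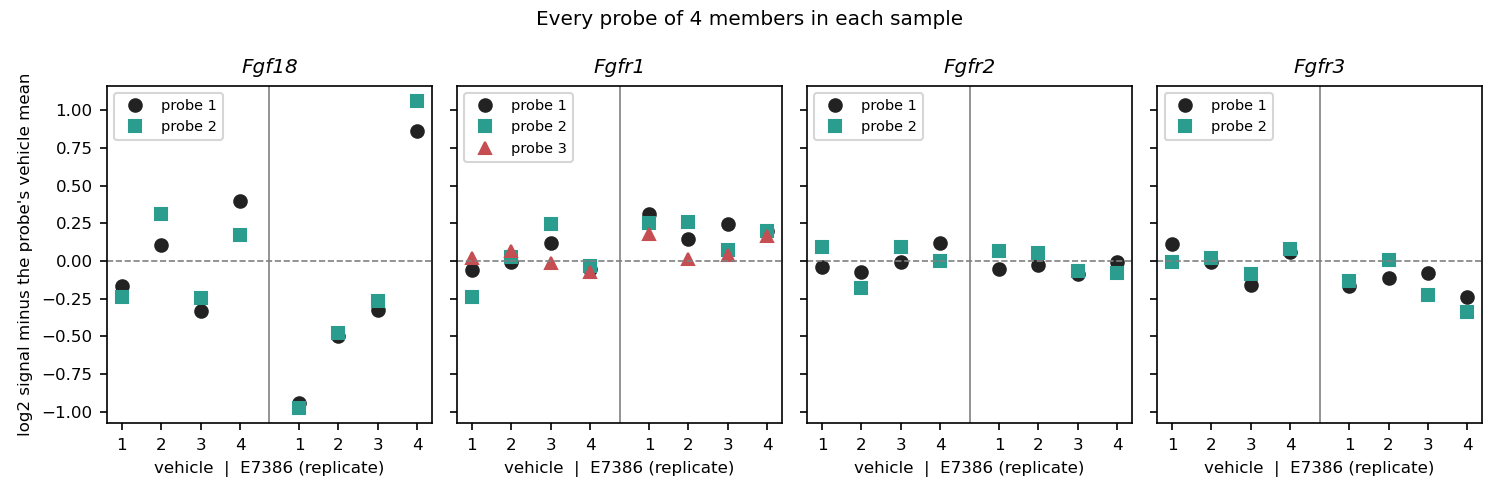
Log2 signal of every probe of Fgf18, Fgfr1, Fgfr2 and Fgfr3 in each sample, minus the mean of the same probe over the 4 vehicle samples (dashed line); numbers under the axis are replicates, vehicle left of the grey line and E7386 right of it. The 2 Fgf18 probes follow each other from sample to sample over a wide range, while all probes of the 3 receptors stay within a narrow band.

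Spry2, the inhibitor that reports on FGF and ERK signalling as well as restraining it, was at -2.88, -2.91, -2.65 and -2.86 in vehicle replicates 1 to 4 and at -2.99, -2.87, -3.09 and -3.13 in E7386 replicates 1 to 4. E7386 replicate 2 lay among the vehicle samples and the other 3 E7386 samples below all of them. The difference was -0.19 (SE 0.092, 95% interval -0.40 to 0.020, adjusted p = 0.376). It was -0.26 with quantile normalization (adjusted p = 0.255) and -0.27 with arrays scaled by their median (adjusted p = 0.26), both planned settings. It shrank to -0.041 with another background correction (normexp on median signals, offset 50), which was chosen after seeing the data.

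The wider pathway was read through 78 further genes in 6 lists, of which 71 were tested. In these lists 0 genes rose and 0 fell (limma, adjusted), and the lowest adjusted p was 0.0833. The counts that follow are over the 68 that were well above background on all 8 arrays, since a gene detected in a single group may be let in by its own difference. Of these, 7 had an unadjusted p under 0.05 (10.3%, against 15.0% of all 23320 genes so measured, of which 1.15% were called) and 5 had groups without overlap (7.35%, against 10.8%). Their median difference was -0.021.

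The list of other FGF ligands held 16 genes of the FGF family, not all of which act as secreted ligands. Of these, 10 were well above background on all 8 arrays, with a median of 0.097 and a range of -0.13 to 0.56. Fgf21, an endocrine FGF, differed by 0.56 (SE 0.20, adjusted p = 0.243) and had the only unadjusted p under 0.05 among the 10. Fgf12, an intracellular member of the family that does not act as a secreted ligand, was detected above background on 4 E7386 arrays but only 2 vehicle arrays, with means of -4.32 and -5.19. Fgf6, a ligand of the muscle lineage, was detected on 4 vehicle arrays and 1 E7386 array (means -4.21 and -4.96), and Fgf15, the endocrine FGF of the gut, on 4 and 3 (means -4.20 and -4.66). Fgf12 and Fgf6 entered through detection in 1 group, and the means of these 3 are given with no test. Fgf3, Fgf16 and Fgf17 were too dim to test.

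The other receptors, co-receptors and binding proteins held 3 differences larger in size than those of Fgfr1, Fgfr2 and Fgfr3, in Flrt1, Fgfr4 and, at -0.24 (SE 0.19), the kinase-less receptor Fgfrl1, named after its value was seen. Fgfr4, the remaining FGF receptor with a kinase domain, was at -0.48, -0.59, -0.24 and -0.16 with vehicle and at -0.75, -0.80, -0.94 and -0.99 with E7386, without overlap. Its difference was -0.50 (SE 0.11, adjusted p = 0.0922). Flrt1, a membrane protein that binds FGF receptors, was at 1.11, 1.01, 0.79 and 1.00 with vehicle and at 0.58, 0.64, 0.22 and 0.11 with E7386, also without overlap, a difference of -0.59 (SE 0.14, adjusted p = 0.0995). Neither passed the threshold of 0.05. The third by p, Flrt2, differed by 0.12 (SE 0.083, adjusted p = 0.542). The list of 7 tested genes had a median of -0.16, and Kl and Klb, the Klotho co-receptors of the endocrine FGFs, were not well above background on any array.

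Downstream of the receptors the list medians were close to 0. The 14 adaptors and ERK kinases, all tested, had a median of -0.0085. Gab1, a docking protein, differed by 0.21 (SE 0.082, adjusted p = 0.293), Map2k1, which encodes MEK1, by -0.18 (SE 0.080, adjusted p = 0.34), and Frs3, a docking protein bound to FGF receptors, by -0.38 (SE 0.22, adjusted p = 0.457). The 8 tested feedback inhibitors other than Spry2 had a median of 0.017, led by the phosphatase gene Dusp4 (0.23, SE 0.10, adjusted p = 0.321). Spred1, a Sprouty relative, differed by -0.13 and Il17rd, also called Sef, by 0.081. Spry3 and Spred3 were too dim to test.

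Genes that ERK signalling is known to switch on lie at the end of the pathway. All 8 on the list were tested, and 0 had an unadjusted limma p under 0.05, against 15.0% of all genes well above background on all 8 arrays. A list of 8 genes is too short to set that count apart from that share. The median difference of the 8 was 0.0052 with a range of -0.23 to 0.13. Etv1, an ETS factor induced by FGF signals, was at 0.54, 0.61, 0.56 and 0.48 with vehicle and at 0.69, 0.56, 0.59 and 0.67 with E7386, a difference of 0.080 (SE 0.068). Egr1, an early-response factor, differed by 0.13 (SE 0.13) and Phlda1 by -0.14 (SE 0.14). The sampling time of 6 h after the last dose is the only one measured.

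Heparan sulphate, the sugar chain that FGF ligands need to hold their receptors, was represented by 21 genes, all tested. Of the 21, 5 had a higher and 16 a lower mean with E7386, where 52.0% of all genes had a higher one. An unadjusted limma p under 0.05 was found for 2 of them (9.52%, against 15.0% of all genes well above background on all 8 arrays). The median of the 21 was -0.080. Ext1, a polymerase that builds the chain, was at 1.03, 1.21, 1.13 and 1.05 with vehicle and at 1.38, 1.45, 1.44 and 1.42 with E7386, without overlap. It differed by 0.32 (SE 0.069, adjusted p = 0.0833), which did not pass. Hs6st1, a sulphotransferase, differed by -0.23 (SE 0.089, adjusted p = 0.281) and Sdc1, a syndecan core protein, by -0.15 (SE 0.082, adjusted p = 0.441).

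**Figure D4:**
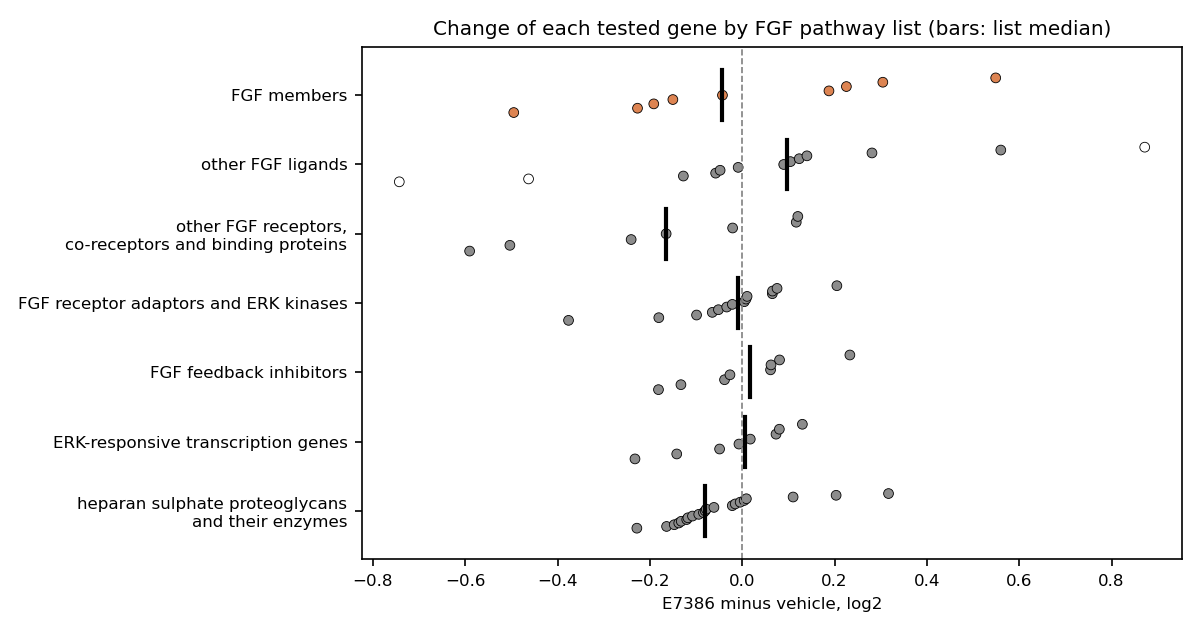
Difference between the groups (E7386 minus vehicle, normalised log2 signal) of each tested gene, by list, with the 9 members in orange. The 68 other pathway genes above background on all arrays are in grey. Open circles are the 3 genes of the ligand list not above background on every array, and black bars are list medians without these 3. The medians lie between -0.16 (other receptors, co-receptors and binding proteins) and 0.097 (other FGF ligands), and no point passed an adjusted p under 0.05.

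The members were also compared with each other across the 8 samples, which share 1 slide and 1 scaling per array. Of the 36 pairs, Pearson's r ran from -0.91 to 0.75 with a median of -0.18. 6 pairs had an unadjusted exact permutation p under 0.05 and 0 an adjusted p under 0.05. The permutations ran over all 8 samples without regard to group, so r and p also hold any difference between the groups.

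The strongest relation by Pearson's r was between Fgf5 and Fgf7, the ligand that ends growth and the mesenchymal growth factor. Samples high in Fgf5 were low in Fgf7, with r = -0.913 (exact two-sided permutation p = 0.00141, 0.0509 after Benjamini-Hochberg adjustment over 36 pairs) and Spearman's rho = -0.881 (exact permutation p = 0.00724, adjusted 0.13). Without vehicle replicate 2 and E7386 replicate 4, the samples farthest from the median of Fgf5, r was -0.915. For deviations from the group means r was -0.916, so the relation was as large within the groups as across them. In the E7386 group the order of the 4 samples by Fgf7 was the exact reverse of their order by Fgf5. The muscle medians, given with Fgf5, ran in the order of Fgf7 in the E7386 group, and in vehicle the 2 samples of lowest muscle signal were the highest in Fgf5 and the lowest in Fgf7. For deviations from the group means, r with the muscle median was 0.908 for Fgf7 and -0.774 for Fgf5. After group and muscle median were both removed by regression, a step added after seeing the data, r of Fgf5 and Fgf7 was -0.803. These values are given with no p, and the part of muscle in the relation of Fgf5 and Fgf7 was not tested. By Pearson's r the relation of Fgf5 and Fgf7 narrowly missed the threshold after adjustment.

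**Figure D5:**
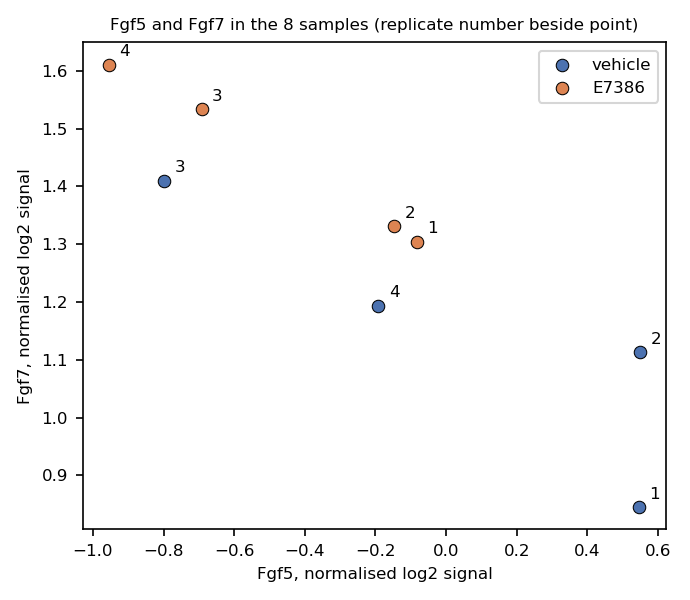
Normalised log2 signal of Fgf5 (horizontal axis) against Fgf7 (vertical axis) in the 8 samples, vehicle in blue and E7386 in orange, with the replicate number beside each point. The points fall from upper left to lower right (r = -0.913) in both groups, and the E7386 samples lie above the vehicle samples of like Fgf5 signal.

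The other 5 pairs were weaker by Pearson's r. By rank, Fgf10 and Spry2 equalled Fgf5 and Fgf7, with Spearman's rho = -0.881 (exact permutation p = 0.00724, adjusted 0.13). Fgf7 and Fgfr3 had r = -0.853 (exact permutation p = 0.00642, adjusted 0.116), which dropped to -0.587 without vehicle replicate 1 and E7386 replicate 4. Fgfr1 and Fgfr3 had r = -0.826 (exact permutation p = 0.0146, adjusted 0.159) and -0.568 without vehicle replicates 1 and 4. Fgf10 and Spry2 had r = -0.805 (exact permutation p = 0.0177, adjusted 0.159), which was -0.85 without replicate 4 of both groups and -0.599 for deviations from the group means. Fgf7 and Fgfr1 (r = 0.746) and Fgf5 and Fgfr3 (r = 0.736) had adjusted exact permutation p-values of 0.225 and 0.247. For deviations from the group means, r was -0.734 for Fgf7 and Fgfr3 and -0.662 for Fgfr1 and Fgfr3. By the same measure it was 0.451 for Fgf7 and Fgfr1 and 0.648 for Fgf5 and Fgfr3.

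For each of the 9 members above background on all arrays, the most similar profiles were sought among 15239 named genes above background on all 8 arrays. The measure was Pearson's r over the 8 samples, which is given as a description, with no test, of the highest among 15239 values. Fgf10 was most like AA986860 (r = 0.990), Fbxo28 (0.979) and Fam160a1 (0.978), and Fgf7 was most like Cert1 (0.970), which encodes a ceramide carrier. Fgf22 was closest to Asprv1 (0.992), which encodes a protease of the upper epidermis, and then to Wdr26 (0.988) and Slc30a4 (0.984). Fgf5 was closest to Dlx4os (0.978), and Fgf18 to Tmbim1 (0.977). Fgfr1 was closest to Zxdc (0.980) and Stat5b (0.969), a transcription factor of cytokine signalling. Fgfr2 was closest to Ppbp (0.964), a platelet chemokine, Fgfr3 to Aldh1a2 (0.962), an enzyme that makes retinoic acid, and Spry2 to Nxpe2 (0.985), Trp53bp1 (0.985) and Zbtb45 (0.985). No member is among the 3 closest genes of any other member.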

How the data were processed

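Total RNA from 8 samples was labelled with Cy3 and hybridised to 1-colour Agilent arrays, per the labels' protocols. The authors' scanner files hold intensity values per spot from Feature Extraction 11.5.1.1, per the file headers (version 11 per the submitters' processing notes), and the processed signal is background-corrected there. The deposited value table holds log2 values with the same sorted values and a median of 5.31 in every column; it was used as an alternative.

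Log2 processed signals were averaged over the spots of a probe, after spots marked as non-uniform in the deposited flag columns were left out, and the 75th percentile of each array was subtracted. Names came from RefSeq accessions (GRCm38.p6) for 27509 of 55681 probes. The brightest probe per gene was kept if well above background on at least 3 of 4 arrays of a group, which left 25353 genes. The comparison used limma 3.58.1 under R 4.3.3 (lmFit, then eBayes), with Benjamini-Hochberg adjustment at 0.05, and the test was tried on simulated data. Precision is limited by the number of arrays.

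The members and lists were chosen with earlier results of these data known. Named in every case are the members, called genes of the lists, the 3 pathway genes of each list with the smallest p, and the 3 genes most like each member, of which the text gives some. Alternatives covered scaling, background correction, filters, probe choice, variance model, array weights, the replicate number and leaving out each array.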

Additional observations from a re-analysis of the deposited data

Results flagged for a closer look

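The brighter Fgf20 probe in E7386 replicate 2 stood apart from the other 3 samples of its group, at a normalised log2 signal of -6.11 against -7.28 to -7.24. The gap made up 0.964 of the range, above Dixon's 95% critical value for 4 samples. The spot was not well above background on that array or on any other, so no level of Fgf20 follows from it. It was the only such value among the 72 sets of 4 samples examined, where chance alone flags about 5% of sets.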

How the results depend on the processing

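The limits are the 4 samples per group, the shared row of each group on the slide and, for Fgf10, Spry2 and Fgf20, signals far below the 75th percentile of the array. With 23 alternatives (19 planned, 4 added after seeing the data, 8 leaving out 1 sample), 0 members passed the threshold in any, and the lowest adjusted p of any member was 0.0842. Of 207 member values 2 changed sign, both of Fgf18: 0.012 without E7386 replicate 1, and 0.21 without the 3 arrays of lowest muscle signal, an alternative added after seeing the data. The count of all genes called (284) was 153 with no filter on dim probes, 689 at an adjusted p under 0.10, 563 with the muscle median as a covariate, 48 without the 3 arrays of lowest muscle signal, and between 88 (without E7386 replicate 3) and 240 (without E7386 replicate 1) with 1 sample left out. The Fgf18 difference then ran from -0.59 to 0.012. With the replicate number as a replicate block 59 genes were called and 0 members (Fgf10 0.55, adjusted p = 0.28). The labels give only a shared number, and deviations of same-numbered samples correlated at 0.487, -0.165, 0.287 and 0.18, so the samples were not treated as paired; vehicle replicates 1 and 3, but not 2 and 4, correlated best with their own number. Normexp on mean signals was planned and not run, since no mean signals were among the scanner columns. Median signals took their place in that alternative.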
